A study of Homo sapiens with 4 samples.

Results

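The long arm of chromosome 4 (4q) carried 1106 of the 63699 H3K27ac peaks of control SK-N-BE(2)C cells (sgCtrl) and 452 of the 50119 peaks of *SNHG1*-depletion cells (sgSNHG1), or 1558 of the 113818 peaks of both lists. A peak belonged to 4q when it began at or beyond 51.8 Mb of chromosome 4 on GRCh38. Peaks of the same chromosome that began below 50 Mb (4p) served as a reference. The arm was chosen by its peak numbers in these same lists, so every difference between the lists on 4q is a description and carries no test.

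H3K27ac was measured by ChIP-seq in SK-N-BE(2)C, a human neuroblastoma (NB) line with *MYCN* amplification, to ask how chromatin changes when the long non-coding RNA *SNHG1* is depleted. The 2 sgCtrl samples carried a non-targeting control gRNA and are labelled wildtype, and the 2 sgSNHG1 samples carried *SNHG1* gRNAs and are labelled SNHG1 knockout. The *SNHG1*-depletion cells were co-transfected with constructs for Cas9 and gRNAs and with reporters, selected with puromycin, sorted as single cells and expanded as clones. The paper calls the control a clone that received a non-targeting gRNA and does not describe its selection separately. The authors pooled both samples of a group before peaks were called, which left 1 list per group, no spread between replicates and no depth per sample. As each group rests on cloned cells, the effect of *SNHG1* depletion and a difference between clones cannot be told apart.

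H3K27ac is the acetylation of lysine 27 of histone H3. Histone acetyltransferases such as p300 and CBP place it, histone deacetylases remove it, and it marks active promoters and active enhancers. Promoters of housekeeping genes carry it in most cell types, whereas enhancers, which lie far from start sites, carry it in a cell type-dependent manner. In NB of the adrenergic type, broad acetylated clusters surround the genes of core transcription factors, among them *HAND2* on 4q.

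Sequences of 160 bases from 6 of the 4q peaks are given first, because these peaks stand for the patterns described below. Each is the GRCh38 plus strand, 5′ to 3′, nearest the summit of its peak and outside exons of protein-coding genes. Capitals mark CG dinucleotides. The promoters of *CTSO*, *GUCY1B1* and *REST* had a peak in the sgCtrl list alone, that of *FGF2* had a much lower peak in sgSNHG1, that of *FAT1* had a peak in the sgSNHG1 list alone, and the *HAND2* stretch lies in the peak of highest fold enrichment of the *HAND2* cluster.
CTSO promoter, chr4:155953553-155953712: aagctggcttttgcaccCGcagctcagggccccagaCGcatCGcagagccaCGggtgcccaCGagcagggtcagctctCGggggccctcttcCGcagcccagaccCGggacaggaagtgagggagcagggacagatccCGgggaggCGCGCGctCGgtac
GUCY1B1 promoter, chr4:155759196-155759355: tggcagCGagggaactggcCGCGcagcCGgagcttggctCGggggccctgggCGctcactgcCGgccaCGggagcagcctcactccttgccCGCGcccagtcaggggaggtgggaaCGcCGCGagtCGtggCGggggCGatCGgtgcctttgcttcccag
REST promoter, chr4:56908856-56909015: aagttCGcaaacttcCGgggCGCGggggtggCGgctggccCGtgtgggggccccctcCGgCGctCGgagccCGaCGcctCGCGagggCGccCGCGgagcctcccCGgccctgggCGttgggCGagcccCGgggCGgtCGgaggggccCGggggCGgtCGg
FGF2 promoter, chr4:122827353-122827512: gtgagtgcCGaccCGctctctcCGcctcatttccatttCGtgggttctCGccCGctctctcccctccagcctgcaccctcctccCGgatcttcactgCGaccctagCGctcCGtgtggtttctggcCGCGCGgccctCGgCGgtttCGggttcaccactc
FAT1 promoter, chr4:186723441-186723600: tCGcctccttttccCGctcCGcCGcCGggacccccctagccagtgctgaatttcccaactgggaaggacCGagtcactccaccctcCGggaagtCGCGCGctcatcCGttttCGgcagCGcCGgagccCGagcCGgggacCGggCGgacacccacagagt
HAND2 upstream, chr4:173538136-173538295: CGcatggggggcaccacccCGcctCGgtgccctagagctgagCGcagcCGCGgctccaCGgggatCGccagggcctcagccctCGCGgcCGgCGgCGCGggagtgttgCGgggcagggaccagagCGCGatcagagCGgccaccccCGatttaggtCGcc
These stretches are rich in G and C, from 66.2% in *FGF2* to 82.5% in *REST*, and hold between 13 CG dinucleotides in *CTSO* and 25 in *REST*.

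Promoter peaks at marker genes of cell types were the same in both lists. Of 12 adrenergic NB markers, 11 had a promoter peak in each list and *GAP43* had none, and of 7 markers of blood, liver and epithelium, *APOB* and *EPCAM* had one in each list. Of all protein-coding genes on the other autosomes, 72.6% had a promoter peak in sgCtrl and 70.8% in sgSNHG1. The adrenergic count therefore says little by itself. Over *SNHG1* itself, the sgCtrl list held 1 peak with a fold enrichment of 3.44 and the sgSNHG1 list held 0. Fold enrichment is the ratio of the fragments at the summit to the local background of the same library, so it is a level within a list. The fragments over each summit were also recovered as whole numbers from the fold enrichment and the −log10 p. The library-wide background of the lists was 4.89 fragments in sgCtrl and 4.66 in sgSNHG1, a ratio of 0.952, so numbers of fragments can be set side by side.

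The sgSNHG1 list held 0.409 times as many peaks on 4q as the sgCtrl list. The covered bases went from 577790 to 231996, a ratio of 0.402. On 4p the peak numbers were 1094 and 822, a ratio of 0.751, on the other autosomes together 60851 and 48138, a ratio of 0.791, and over the 21 other autosomes taken singly the ratio ran from 0.724 to 0.852. Relative to 4p, the log2 ratio of peak numbers on 4q was -0.88, with a 95% interval of -1.08 to -0.67 that covers counting error only. The arm is poor in genes, with 3.78 protein-coding genes per Mb against 4.68 on 4p. Per gene it carried 2.12 peaks in sgCtrl and 0.864 in sgSNHG1, whereas 4p carried 4.68 and 3.51. Most peaks of the reference lay at the tip of the short arm. Below 10 Mb, 4p held 799 peaks in sgCtrl and 563 in sgSNHG1, a ratio of 0.705. From 10 to 50 Mb it held 295 and 259, a ratio of 0.878.

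The peaks of 4q already stood apart in sgCtrl. Their median local background was 5.48 fragments, near the library-wide value, against 16.1 on 4p and 13.2 on the other autosomes, and 40.7% of them lay at the library-wide floor against 10.2% on 4p. With a low background a peak of few fragments reaches a high fold enrichment, and the median fold enrichment was 5.09 on 4q and 3.41 on 4p. In sgSNHG1 the median fold enrichment of the listed 4q peaks was 5.83, above that of sgCtrl, while the list was shorter. Fold enrichment over whole lists therefore moved in the opposite direction to the peak number. This was not particular to 4q, as the median also went from 3.41 to 3.58 on 4p and from 3.73 to 3.87 on the other autosomes.

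The low values held along the arm up to 190 Mb. In 14 windows of 10 Mb on 4q with at least 20 sgCtrl peaks, the ratio of peak numbers ran from 0.19 in the gene-poor window of 60 to 70 Mb, which held 21 and 4 peaks, to 0.544 at 70 to 80 Mb. In 270 windows elsewhere the median ratio was 0.819, and 3 of them were as low as the highest window of 4q. These 3 were on chromosome 9, with ratios of 0.379 at 0 to 10 Mb, 0.38 at 10 to 20 Mb and 0.333 at 20 to 30 Mb. On 4q, the window from 180 to 190 Mb held the most sgCtrl peaks, 152, against 47 in sgSNHG1. The last stretch, beyond 190 Mb, held 7 peaks in sgCtrl and 6 in sgSNHG1, and near-identical copies of it elsewhere in the genome make the placement of its reads uncertain.

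**Figure D1:**
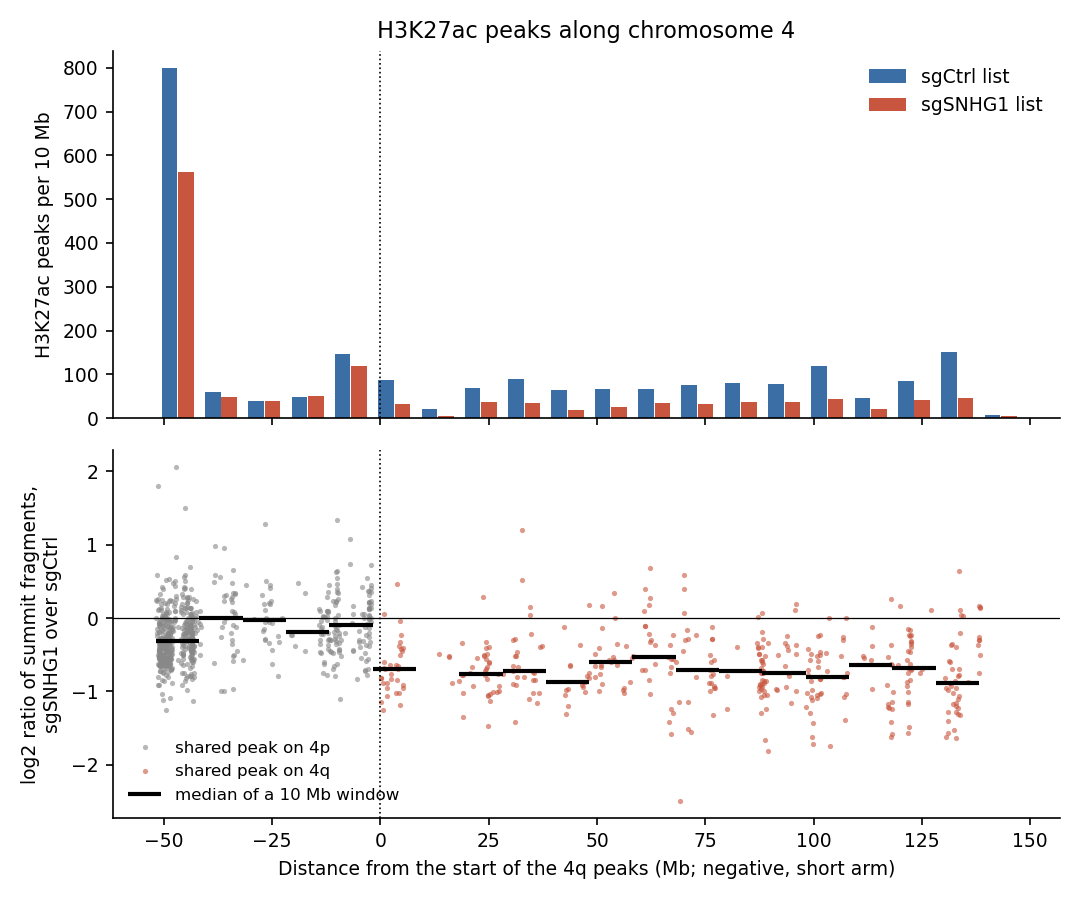
Top, the number of H3K27ac peaks in windows of 10 Mb of chromosome 4 in the sgCtrl and sgSNHG1 lists, against the distance in Mb from the start of the 4q peaks (dotted line, negative on the short arm). Bottom, the log2 ratio of fragments over the summit, sgSNHG1 over sgCtrl, at each peak shared by the lists, with window medians as black bars where at least 10 peaks were shared. The 13 window medians of 4q lie between -0.89 and -0.53, and those of 4p between -0.32 and 0.

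The level of shared peaks differed across the limit of the arm. The last 4p peak, at 49711454-49711912 and 682762 bp from *CWH43*, had 95 fragments in sgCtrl and 122 in sgSNHG1. The first 4q peak, at 51843175-51843676 over the start site of *DCUN1D4*, a component of the machinery that neddylates cullins, had 75 and 34 fragments. Of the 20 shared peaks before the limit, 6 had fewer fragments in sgSNHG1, and the median log2 ratio was 0.14. These 20 lay between 49120871 and 49711912, and among them was a peak with 1190 fragments in sgCtrl and 1300 in sgSNHG1. Copies of their sequence in the genome are not given for these 20, so how well their reads were placed is not shown. Over all 103 shared peaks from 40 to 50 Mb the median was lower, -0.10, and over the 33 from 50 to 60 Mb it was -0.70. Of the 20 shared peaks after the limit, 18 had fewer, and the median was -0.82. No peak of either list lay between them, so the position of the change is known only to this gap, which includes the centromere.

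Of the 1106 sgCtrl peaks on 4q, 699 had no overlapping sgSNHG1 peak, or 63.2% (95% Wilson interval 60.3 to 66.0), where the share over all sgCtrl peaks was 38.5%. It was 40.2% on 4p (44.7% below 10 Mb and 28.1% from 10 to 50 Mb), and between 32.5% and 43.1% on each of the other 21 autosomes. Parts of chromosome 9 had shares like that of 4q, with 65.5% at 0 to 10 Mb, 66.0% at 10 to 20 Mb and 70.8% at 20 to 30 Mb. In the other direction, 37 of the 452 sgSNHG1 peaks on 4q had no sgCtrl peak, or 8.19%, where the share over all sgSNHG1 peaks was 20.8%. When 50% of both peaks had to overlap, the share on 4q was 28.5%, and when a peak within 1 kb counted it was 4.20%. By the plain overlap, most of the sgSNHG1 list on 4q was nested in the sgCtrl list.

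Promoters and other peaks differed in this. Peaks no farther than 3 kb from the start site of a protein-coding gene were taken as promoter peaks. Of 379 sgCtrl promoter peaks on 4q, 112 had no sgSNHG1 peak, or 29.6%, and the share was 28.7% on 4p and 26.4% on the other autosomes. Of 727 other peaks, 587 had none, or 80.7%, against 47.4% and 46.5%. Among these, the share was 60.6% in exons, 81.6% in introns, where 350 of 429 had none, and 84.9% between genes, where 197 of 232 had none. Promoter peaks made up 34.3% of the sgCtrl list on 4q and 62.8% of the sgSNHG1 list. In numbers, 4q went from 379 to 284 promoter peaks and from 727 to 168 other peaks, so the shorter list consisted mainly of promoters.

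Over all strengths together, the shares at promoters of 4q and 4p were similar. When sgCtrl peaks of the same −log10 p were compared, promoter peaks of 4q were more often without a partner up to a −log10 p of 50. Peaks of equal −log10 p can still differ in fragments, as the local background was lower on 4q. Between 6 and 10 the promoter shares were near each other, 77.4% of 31 on 4q and 70.8% of 48 on 4p. Between 20 and 30, 30.5% of 59 promoter peaks on 4q had no sgSNHG1 peak, against 7.41% on 4p and 6.27% on the other autosomes. For other peaks of that −log10 p the shares were 61.5% of 109 on 4q, 12.7% on 4p and 10.9% on the other autosomes. Above 50 all 156 peaks of 4q had an sgSNHG1 peak.

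**Figure D2:**
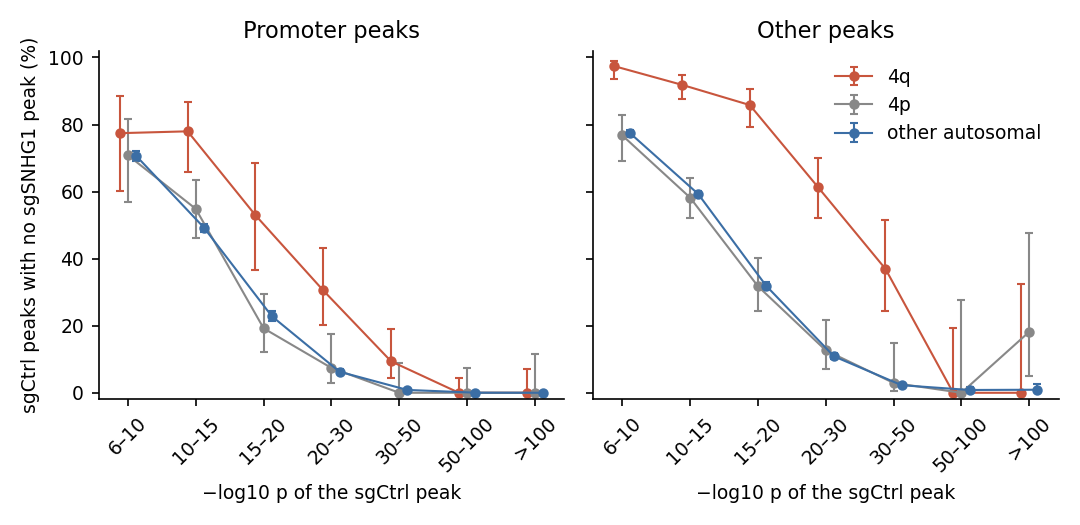
The percentage of sgCtrl peaks with no sgSNHG1 peak, by −log10 p of the sgCtrl peak, for promoter peaks (left) and other peaks (right), with 95% Wilson intervals as bars, which cover counting error only. The 4q points lie above those of 4p and the other autosomes up to a −log10 p of 50 in both panels, and at 0 beyond it.

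Copies of the summit sequence in the genome were counted for all chromosome 4 peaks, because reads from repeated sequence cannot be placed with certainty. The count was taken over the 31-base words of 300 bp around the summit, and its median was 1 at each of the 6 peaks shown above. Of the 727 non-promoter sgCtrl peaks on 4q, 132 (18.2%) had a median of at least 10 copies of their 31-base words in the genome, against 7.28% on 4p. Among these 132, 76.5% had no sgSNHG1 peak, and among the 595 with fewer copies 81.7% had none. The share at non-promoter peaks was thus as high without the repeated sequences. At promoters, 7 of 379 peaks on 4q were of the repeated kind.

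The sequence under the summits is given for shared and unshared peaks as a description, and unshared peaks were also weaker. Over 300 bp around the summit, shared 4q promoter peaks held a median of 31 CG dinucleotides and unshared ones 23, and on 4p the medians were 22 and 11. At non-promoter peaks of 4q the medians were 13.5 and 9. The E-box CAGATG, a form bound by bHLH factors such as HAND2, was found on either strand in 16.4% of the unshared and 11.4% of the shared non-promoter peaks of 4q, and in 20.4% of all such peaks of the other autosomes. The GATA motif AGATAA was found in 2.21% and 3.57%, and in 2.85% elsewhere, and the AP-1 motif TGANTCA in 3.07% and 3.57%, and in 4.72% elsewhere. These shares are descriptions of letters and not of binding.

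At the 407 sgCtrl peaks of 4q that overlapped an sgSNHG1 peak, the fragments over the summit were lower in sgSNHG1 at 372 (91.4%), with a median of 71 in sgCtrl and 42 in sgSNHG1. The share with fewer fragments was 72.3% on 4p and 65.9% on the other autosomes. The median log2 ratio was -0.72 (quartiles -0.97 and -0.40), against -0.26 at 654 peaks of 4p and -0.19 at 37616 peaks of the other autosomes. The local background beneath the same peaks was also lower, with a median log2 ratio of -0.55 on 4q, against -0.20 on 4p. It cannot fall below the library-wide floor, at which 46.0% of all sgSNHG1 peaks of 4q lay, so its change on 4q was bounded. As both parts of the ratio were lower, the fold enrichment moved less, with a median log2 ratio of -0.17 on 4q and -0.003 on 4p. A log2 ratio of fragments of -0.75 or lower, a limit chosen after the values were seen, was found at 193 of the 407 peaks (47.4%), at 6.86% of all shared peaks and at 5.20% of those on 4p.

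Peaks near the threshold are compared only if they were called in both lists, so the strongest peaks were also taken alone. A choice by the sgCtrl value favours lower values in sgSNHG1, and the reference regions were chosen in the same way. All 156 sgCtrl peaks of 4q with a −log10 p above 50 had an sgSNHG1 peak, and 153 of them had fewer fragments there, with medians of 128 and 75 fragments. The median log2 ratio was -0.82, a ratio of 0.566, and 80% of the peaks lay between -1.22 and -0.47. At promoters it was -0.85 (132 peaks) and at other peaks -0.75 (24 peaks). On 4p the median was 0.02 over 96 shared peaks, with 0 at promoters and 0.13 at other peaks. On the other autosomes it was 0.01 over 6000, with 0.06 at promoters but -0.40 at 1158 other peaks, of which 77.9% had fewer fragments. The difference between 4q and the other autosomes was thus wider at promoters than at other peaks, whereas that between 4q and 4p was not. The other peaks were few on chromosome 4, with 24 shared on 4q and 19 on 4p. Those of 4p included peaks just before the limit of the arm, such as 49657458-49657743 and 49711454-49711912. The comparison of other peaks with 4p was not made without them. When peaks were chosen by an sgSNHG1 −log10 p above 50 instead, as was tried after the values were seen, a choice that favours the opposite direction, the median of 78 shared peaks on 4q was -0.72, and 72 of them had fewer fragments in sgSNHG1. By that choice it was 0.13 on 4p and 0.13 on the other autosomes, where other peaks had -0.01. In windows with at least 10 shared peaks, 3 windows outside 4q had a median as low as the highest of 4q, and all 3 were on chromosome 9, between 0 and 30 Mb. The lists hold no input library and no copy number, so the number of copies of the arm and the acetylation per copy cannot be told apart.

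Of the 523 protein-coding genes of 4q, 301 had a promoter peak in sgCtrl (57.6%) and 245 in sgSNHG1 (46.8%). Both lists had one at 242 genes, the sgCtrl list alone at 59 and the sgSNHG1 list alone at 3. The 59 were 19.6% (15.5 to 24.5) of the genes with an sgCtrl promoter peak, where the share over all genes was 6.92%, and on 4p it was 3.64%. Of the 242 genes with both, 174 had a lower fold enrichment in sgSNHG1 (71.9%), where the share over all genes was 43.3%. The highest promoter peaks of the 2 lists overlapped at 227 of the 242 genes, and at these 208 had fewer fragments in sgSNHG1 (91.6%), against 69 of 141 such genes on 4p (48.9%) and 40.6% on the other autosomes. At the other 15 genes the highest peaks lay at different places, and their values are not compared as 1 peak.

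The highest promoter peaks that the sgCtrl list alone held belonged to genes of varied roles. *CTSO*, a cysteine protease of the cathepsin family, had a fold enrichment of 10.6 with 62 fragments. *GUCY1B1*, a subunit of the nitric oxide-sensing soluble guanylate cyclase, had 10.3 with 63 fragments. Its partner subunit *GUCY1A1*, which lies next to it, had a promoter peak in both lists, with a fold enrichment of 14.2 in sgCtrl and 9.37 in sgSNHG1 and with 175 and 52 fragments. *PPM1K*, a mitochondrial phosphatase that activates the breakdown of branched-chain amino acids, had 10.01 with 58 fragments, and *SLC39A8*, a transporter of zinc and manganese, had 8.82 with 51.

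*REST*, the repressor of neuronal genes in non-neuronal cells, had an sgCtrl fold enrichment of 8.27 with 50 fragments and no sgSNHG1 promoter peak. *GPRIN3* had 8.01, and *NMU*, which encodes the neuropeptide neuromedin U, had 7.98. *FAM241A*, *C4orf36* and the ubiquitin ligase gene *HERC3* had 7.64, 7.56 and 7.47. The fragments of these 10 genes ran from 43 to 63, so each was a moderate peak in sgCtrl.

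The 10 genes of highest sgCtrl fold enrichment with a promoter peak in both lists stand for 8 separate peaks, as 2 pairs of genes share one. All 8 were lower in sgSNHG1, and their choice by the sgCtrl value favours that direction. *MTHFD2L*, a mitochondrial enzyme of folate metabolism, had the highest fold enrichment of 4q in the sgCtrl list, 23.6, and 19.97 in sgSNHG1, with 164 and 112 fragments. *CRACD*, a regulator of actin capping, had 21.3 and 17.9, with 364 and 179 fragments. *SPCS3*, a subunit of the signal peptidase, had 21.1 and 18.9, with 179 and 106 fragments.

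*ANKRD37* and *LRP2BP* share a peak, with 19.9 and 15.7. *TMEM165*, a Golgi protein needed for glycosylation, had 18.6 and 15.6, and *CHIC2* had 17.8 and 17.1. *FIP1L1*, a factor of mRNA polyadenylation, shares its peak with ENSG00000282278, with 17.5 and 10.4, the widest change among these genes. *WDFY3*, a scaffold of selective autophagy, had 17.5 and 14.7.

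Wide changes were also found elsewhere among the genes with both peaks, and *CCDC110*, *BBS7* and *H2AZ1* were singled out after their values were seen. *CCDC110* went from 11.2 to 4.77. *FGF2*, a growth factor of the fibroblast growth factor family, went from 16.2 to 7.78 in fold enrichment and from 123 to 43 fragments. Some genes were higher in sgSNHG1. *BBS7*, of the complex that carries proteins to cilia, had 7.64 in sgCtrl and 11.8 in sgSNHG1, with 44 and 66 fragments, and *H2AZ1*, a histone variant, had 4.70 and 7.26, with 59 and 67.

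Of 18 genes of DNA-binding factors, 14 had a promoter peak in sgCtrl and 10 in sgSNHG1. *GSX2*, *HOPX*, *PRDM8*, *REST* and *NR3C2* had one in the sgCtrl list alone, and *NEUROG2*, a proneural bHLH factor, had one in the sgSNHG1 list alone, with a fold enrichment of 4.41 and 25 fragments. Of 8 with overlapping highest peaks, 6 had fewer fragments in sgSNHG1. This share and those of the gene groups below are to be read against the 91.6% of all such 4q genes. *SMAD1*, a transducer of bone morphogenetic protein (BMP) signals, had fold enrichments of 13.3 and 13.4 with 220 and 115 fragments, so the fold enrichment barely differed where the fragments did.

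Growth factors and receptors gave few peaks. Of 13 growth factor genes, *FGF2* and *VEGFC* had promoter peaks, and *VEGFC*, a growth factor of lymphatic vessels, went from 6.79 to 4.42 in fold enrichment. Of 5 receptor kinases, *BMPR1B*, a BMP receptor, had one, with fold enrichments of 12.18 and 12.04 with 355 and 180 fragments. *KIT*, *PDGFRA*, *KDR* and *EPHA5* had none in either list. Of 12 chemokine genes, *CXCL11* had one, in sgCtrl alone, at 4.07.

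Of 19 neuronal signalling genes, 11 had a promoter peak in sgCtrl and 8 in sgSNHG1, and the 3 in the sgCtrl list alone were *GUCY1B1*, the AMPA receptor subunit gene *GRIA2* (4.07) and the neuropeptide Y receptor gene *NPY2R* (5.26). All 7 with overlapping highest peaks had fewer fragments in sgSNHG1. After *GUCY1A1*, *MAPK10*, a Jun kinase of neurons, was the highest, with 14.0 and 15.3 in fold enrichment and 101 and 87 fragments.

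All 13 chromatin genes had a promoter peak in both lists, and 11 of 12 with overlapping highest peaks had fewer fragments in sgSNHG1. *HNRNPDL*, an RNA-binding protein, went from 372 to 226 fragments, and *SAP30*, a subunit of the Sin3 histone deacetylase complex, from 204 to 107. Of 14 cell cycle genes, 13 and 12 had a peak, *NEIL3* in sgCtrl alone, and 11 of 12 had fewer fragments. *MND1*, of meiotic recombination, went from 127 to 62 and *CCNG2*, cyclin G2, from 125 to 57. Of 26 housekeeping genes, 24 and 23 had a peak, *COPS4* in sgCtrl alone, and 20 of 22 with overlapping highest peaks had fewer fragments. The shares of these 3 groups were near that of the arm. The recycling factor *ABCE1*, which shares its peak with *ANAPC10*, went from 113 to 89 and *SEC24D*, of the vesicle coat of the endoplasmic reticulum, from 163 to 103.

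Among adhesion and guidance genes, more had a promoter peak in sgSNHG1, a difference made by *FAT1* and *ANK2* alone. These are 2 of the 3 genes of 4q with a promoter peak in the sgSNHG1 list alone. As the group was written with earlier results known, the number is no result about the group. Of 15, 4 had a promoter peak in sgCtrl and 6 in sgSNHG1, and of 3 with overlapping highest peaks, 2 had fewer fragments and *NPNT* had 19 in each. *TENM3*, a teneurin of neuronal wiring, had its highest promoter peaks at different places. The highest of sgCtrl had 83 fragments and 43 in sgSNHG1, and the highest of sgSNHG1 had 118 fragments and 208 in sgCtrl, so both were lower in sgSNHG1. *PALLD*, an actin-binding protein, had 49 and 26. *FAT1*, an atypical cadherin, had 2 promoter peaks in the sgSNHG1 list alone. The higher one, at 186723265-186723835, had a fold enrichment of 7.43 and 45 fragments, and the nearest sgCtrl peak lay 166212 bp away. *ANK2*, an ankyrin that anchors membrane proteins, had a peak at 4.51 with 29 fragments in the sgSNHG1 list alone.

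The *FAT1* peak was the highest of the 37 sgSNHG1 peaks on 4q with no sgCtrl peak, followed by a peak over a start site of *AFF1* at 7.42, which was noticed after the values were seen. Of the 37, 14 were promoter peaks, the median fold enrichment was 4.24, and 18 lay within 1 kb of an sgCtrl peak.

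Peaks of both lists on 4q no more than 12.5 kb apart were joined into 810 clusters, and 473 of these (58.4%) held no sgSNHG1 peak. Joined in the same way, 91 of 402 clusters on 4p and 5810 of 27825 on the other autosomes held none. The 23 clusters of 4q with at least 4 sgCtrl peaks held 113 peaks in sgCtrl and 50 in sgSNHG1. The sgSNHG1 number was lower in 20 of them (87.0%) and equal in 3, and 3 held none. It was lower in 78.1% of such clusters on 4p and in 76.4% on the other autosomes. The ratio of peak numbers in such clusters was 0.442 on 4q, against 0.719 in 64 clusters of 4p and 0.738 in 3370 of the other autosomes. A choice by the sgCtrl number favours ratios below 1. When clusters were chosen by at least 4 sgSNHG1 peaks instead, 4q had 7, with 35 peaks in sgCtrl and 34 in sgSNHG1, a ratio of 0.971 against 0.782 on 4p and 0.823 on the other autosomes. The order of 4q and the references thus depended on the list used for the choice. The *HAND2* cluster, 38.03 kb long, was the largest by peak number and held 9 peaks in each list. Its covered bases went from 7148 to 4599, and at each of the 8 sgCtrl peaks with an sgSNHG1 partner the fragments were lower in sgSNHG1. Over all shared peaks of 4q that share was 91.4%.

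In the *HAND2* cluster, the peak at the start of the gene had 273 fragments in sgCtrl and 123 in sgSNHG1, and the peak 1 kb upstream had 201 and 125. The upstream peak whose sequence is given above had 166 and 99, with fold enrichments of 6.82 and 5.72. Downstream, 2 neighbouring peaks had 147 and 144 fragments in sgCtrl against 73 and 64 in sgSNHG1, and the outermost shared peak had 86 and 29. The 2 peaks near the end of the gene changed less, from 117 to 86 and from 110 to 99 fragments. Their fold enrichments were higher in sgSNHG1, from 1.914 to 2.204 and from 2.248 to 3.055. The highest *HAND2* promoter fold enrichment was 4.04 in sgCtrl and 3.26 in sgSNHG1, at different peaks of the cluster. The local background is high there, so the fold enrichment is modest beside the number of fragments.

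The cluster of *PRDM8*, a histone methyltransferase family member of the nervous system, held 6 peaks in sgCtrl, with 24 to 37 fragments, and none in sgSNHG1. Clusters near a start site of *STOX2* and within *DCLK2* held 4 peaks each in sgCtrl and none in sgSNHG1. A cluster within *SEC24D* and one around the end of *TENM3* each went from 6 peaks to 1. A cluster within *MAML3*, a Notch coactivator, went from 8 to 5. The 3 clusters that held none in sgSNHG1 had peaks of at most 37 fragments.

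**Figure D3:**
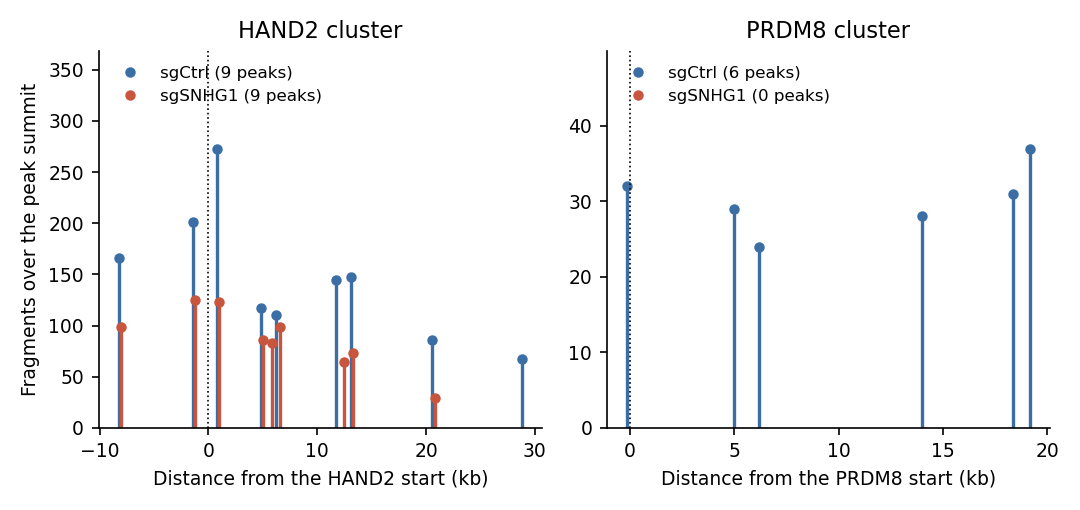
Fragments over the summit of each peak of the *HAND2* (left) and *PRDM8* (right) clusters, against the distance in kb from the start of the gene in its direction of transcription, in sgCtrl and sgSNHG1. At *HAND2* both lists hold 9 peaks and the highest go from 273 to 123 fragments, and at *PRDM8* 6 sgCtrl peaks of 24 to 37 fragments have no sgSNHG1 partner.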

How the data were processed

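The 2 sgCtrl and 2 sgSNHG1 samples were H3K27ac ChIP-seq libraries of SK-N-BE(2)C cells. The authors trimmed reads with cutadapt, aligned them with BWA to GRCh38, pooled the replicates within each group and used MACS2 to call peaks on paired-end fragments, keeping duplicates, at a p-value of 1e-06. The version of MACS2 is not given in the sources used here, and no input library is stated. The deposited lists hold a fold enrichment (a ratio) and a −log10 p for each peak. Duplicates and multiply placed reads can raise peaks at repeats. The depth per sample is unknown, and intervals (95%) cover counting error only.

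Members, gene groups and the rule for named genes were chosen with earlier results of these data known. Named genes were the 10 4q genes with the highest sgCtrl promoter fold enrichment in sgCtrl alone and in both lists, the 5 highest in sgSNHG1 alone (3 existed), *HAND2*, the genes beside the limit of the arm, and the 2 highest of each of 9 gene groups with any member found in sgSNHG1 alone. A gene under this rule is not described. Peaks were shared when they overlapped by at least 1 bp. Start sites came from GENCODE release 44. Fragments were recovered by assuming a pseudocount of 1 and a Poisson p-value, and a whole number within 0.001 was found for 99.9% of the sgCtrl and 99.95% of the sgSNHG1 peaks. This step was tested on simulated data. Copies were counted on both strands over the GRCh38 chromosomes. Python 3.11.15, numpy 2.4.6, pandas 2.3.3 and scipy 1.17.1 were used. The alternatives were a stricter threshold, equal list sizes, merging, and other rules for overlap, promoters, reference and measure.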

Additional observations from a re-analysis of the deposited data

How the results depend on the processing

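No paired analysis was possible because both replicates of a group were pooled into 1 list, and for the same reason no replicate could be left out. Of 40 values under alternatives, 26 stayed within the counting interval of the reported value, or within 1.5 times for ratios, and 14 did not. Shares and plain ratios are always positive, so a change of sign was possible only for log2 ratios and percentile changes. None of these changed sign. The percent of 4q sgCtrl peaks with no sgSNHG1 peak was 63.2%, against 56.8% with lists of equal size and 70.8% when 50% of both peaks had to overlap. With these settings it was 25.1% and 38.5% at promoters, and 76.3% and 87.6% at other peaks. With promoters within 1 kb it was 24.7% at promoters. The percent of 4q sgSNHG1 peaks with no sgCtrl peak was 8.19%, against 28.5% with the 50% overlap and 4.20% when a peak within 1 kb counted. With the part of 4p from 10 Mb on as reference, chosen after seeing the data, the log2 ratio of peak numbers was -1.10. The median log2 ratio of fold enrichment relative to 4p, -0.17, was -0.45 in fragments, also chosen after seeing the data, and -1.89 points as the percentile in each list. Chosen by the sgSNHG1 list, also after seeing the data, the median log2 ratio of fragments at strong 4q peaks was -0.72 and the ratio of peak numbers in clusters of at least 4 peaks was 0.971. The cluster ratio was then above that of 4p, 0.782, whereas by the sgCtrl choice it was below, 0.442 against 0.719. In percentile points, 71 of 82 genes of the gene groups and rules with both peaks kept their direction and 11 had the opposite one, which were *NKX6-1* (-1.65), *SMAD1* (-0.28), *ZNF827* (-0.39), *TENM3* (-0.012, at different peaks), *UNC5C* (-1.51), *CCNA2* (-0.033), *CDKN2AIP* (-0.53), *PRMT9* (-0.51), *UBE2D3* (-0.031), *CAMK2D* (-1.68) and *PPP3CA* (-1.64). Of 19 genes with an sgCtrl promoter peak alone, 17 stayed so at a −log10 p of at least 10 and 18 with promoters within 1 kb. The cause of these shifts was not tested. Without replicate values, no difference can be set against the spread between samples.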
